A study of Mus musculus with 13 samples.

Results

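Aquaporins and the genes that make, cut and bind hyaluronan were followed through 2 days and nights in mouse back skin. The set held 10 genes, the aquaporins Aqp1, Aqp3, Aqp5, Aqp7 and Aqp9, the hyaluronan synthases Has1, Has2 and Has3, the hyaluronidase Hyal2 and the hyaluronan receptor Cd44. They were taken by name, each from the array probe that carried its symbol alone, and each had 1 such probe. All 10 lay above the limit for dim probes and were among the 16322 genes tested. The mice were male C57Bl6 animals at postnatal day 30, whose hair follicles were growing (anagen). They lived in a cycle of 12 h light and 12 h dark with standard chow freely available, and no other genotype or treatment entered this description. Sampling of whole back skin began at ZT2 and ended at ZT50 in steps of 4 h (ZT is the time in hours since lights on). Equal amounts of RNA from 3 mice were pooled at each time, which gave 13 pools from 39 mice, each read on 1 array. There were 7 light pools and 6 dark pools, 3 of them at the 2 h time of day and 2 at each of 6, 10, 14, 18 and 22 h. Because each array carried a pool, the spread between single mice was not seen, and p-values measure the spread between pools.

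Aquaporins are membrane channels that pass water, and the aquaglyceroporins among them, such as Aqp3, Aqp7 and Aqp9, also pass glycerol. In skin, Aqp3 sits in the living layers of the epidermis and supplies it with water and glycerol. Hyaluronan is a long unsulfated sugar polymer that holds water in the dermis and between keratinocytes; it is spun out at the cell membrane by the synthases, cut by hyaluronidases and bound at the cell surface by Cd44.

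The labelled tissue and times were checked first. The epidermal keratin genes Krt14 and Krt10 lay between 9079 and 12050 intensity units and the collagen gene Col1a1 between 13131 and 16086. Nr1d1, a repressor within the clock, ran from 758 to 4715 and followed a wave of 24 h with a peak-to-trough fold of 5.66 (limma, adjusted p = 2.26e-04), and 7 of 13 clock genes tested passed. Array medians lay between 440.0 and 483.2 units. Markers of other tissue moved between pools: the mean of 14 skeletal muscle markers ran from 11.30 log2 at ZT2 to 12.43 at ZT30, 2.19-fold. The mean of 10 hepatocyte markers was 11.33 log2 at ZT46 and between 8.19 and 9.50 elsewhere. The ZT46 pool also had the highest array median.

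The stretches just upstream of 5 members are shown because a daily pattern is read through clock elements there, and because Aqp3 and Aqp7 are neighbours. They come from the RefSeq promoter table (mouse GRCm38.p6), which held 8 of the 10 members, and each runs 5′ to 3′ on the gene's strand and ends at the base before the annotated start. The capitals mark, in Aqp5 (chr15:99590908-99591027, plus strand), the E-box CACGTG that the CLOCK and BMAL1 proteins bind. In Cd44 (chr2:102901666-102901785, minus strand) they mark AACGTG, the reverse complement of the E-box variant CACGTT. In Has1 (chr17:17855189-17855308, minus strand) and Aqp7 (chr4:41048137-41048256, minus strand) they mark TGACCT, the reverse complement of the ROR and REV-ERB half-site AGGTCA. In Aqp3 (chr4:41098184-41098303, minus strand) they mark a TATAAA box.
Aqp5: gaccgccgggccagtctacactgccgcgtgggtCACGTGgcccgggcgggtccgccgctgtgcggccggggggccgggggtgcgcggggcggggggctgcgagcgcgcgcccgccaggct
Cd44: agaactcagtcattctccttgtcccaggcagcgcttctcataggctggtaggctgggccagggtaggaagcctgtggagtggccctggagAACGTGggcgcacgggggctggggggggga
Has1: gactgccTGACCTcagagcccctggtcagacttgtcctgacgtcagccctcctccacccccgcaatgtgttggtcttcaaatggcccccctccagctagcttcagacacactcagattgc
Aqp7: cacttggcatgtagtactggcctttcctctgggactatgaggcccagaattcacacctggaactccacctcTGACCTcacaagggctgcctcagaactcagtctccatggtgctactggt
Aqp3: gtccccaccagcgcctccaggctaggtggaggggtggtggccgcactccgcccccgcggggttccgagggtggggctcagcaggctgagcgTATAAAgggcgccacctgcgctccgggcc

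For comparison, the rhythmic clock gene Per3 carried 2 copies of the D-box TTATGTAA, in capitals, in the first 120 of its 250 bases before the start (chr4:151044796-151044915, minus strand).
Per3: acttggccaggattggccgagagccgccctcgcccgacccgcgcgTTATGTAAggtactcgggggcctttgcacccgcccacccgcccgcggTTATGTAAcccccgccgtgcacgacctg

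Both strands of the 250 bases before the start were searched in all 32851 windows of the table, and no match of one motif overlapped a match of another in the members and clock genes. CACGTG was in 6.02% of all windows, in 1 of 8 members (Aqp5) and in 4 of 13 clock genes. The variant CACGTT was in 3.85% of windows, in 2 members (Aqp9 and Cd44) and in 3 clock genes. The half-site AGGTCA was in 14.0% of windows, in 2 members (Aqp7 and Has1) and in 3 clock genes. The D-box, searched as TTATGTAA and TTACGTAA, was in 0.931% of windows, in 0 members and in 1 clock gene, Per3. The shares are per window, while a member or clock gene was counted if any of its windows held the motif. Some genes, such as Aqp7 and Tef, have more than 1 window, so counts and shares are unlike measures. These matches describe letters in the window and are not evidence of binding.

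No member passed the test for a wave of 24 h. The test, in limma with Benjamini-Hochberg adjustment over all genes, called 0 of 10 members beside 23 of 16322 genes, or 0.141%. At an unadjusted p under 0.05 it took 1 of 10, Aqp5, beside 9.54% of all genes. The count was 0 to 2 of 10 when 1 pool was left out, with no all-gene share given for those fits. The fitted peak-to-trough folds of the members ran from 1.02 for Aqp9 to 1.17 for Aqp5, and the upper 95% limits of those folds ran from 1.15 for Cd44 to 1.53 for Has2. For all genes the median fold was 1.09 and the median upper limit 1.28. The members' median amplitude, the height of the fitted wave, was 0.08 log2 beside 0.06 for all genes, and 7 of 10 lay above the all-gene median.

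**Figure D1:**
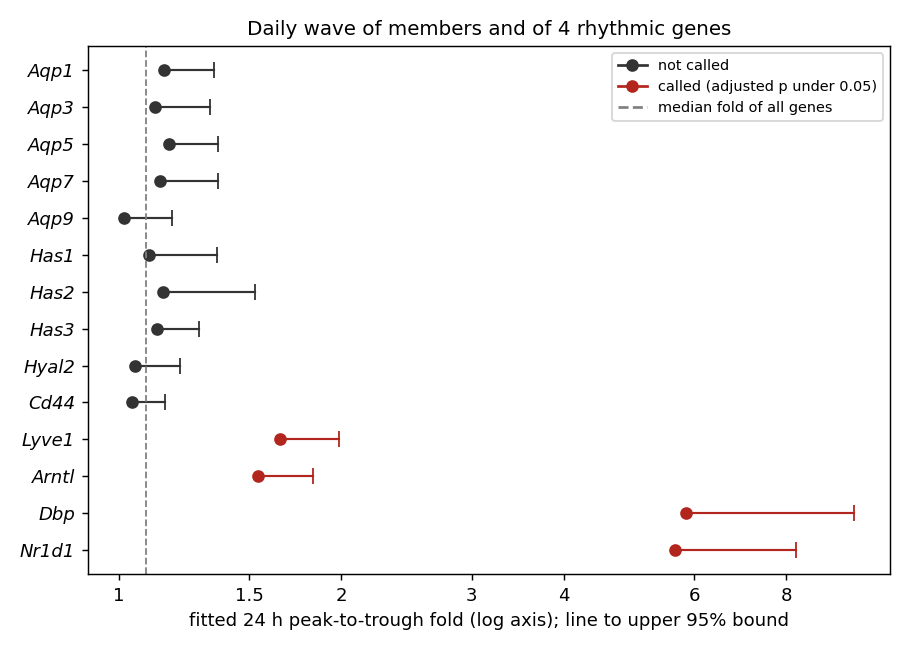
Fitted peak-to-trough fold of the wave of 24 h (points, log axis) with its upper 95% limit (lines) for the 10 members, and for Lyve1, Arntl, Dbp and Nr1d1. The members' fitted folds lie between 1.02 and 1.17, and Nr1d1 is at 5.66.

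The SD of the hour means was set against the SD between pools of the same hour. Means of 2 or 3 pools vary less than single pools, so this ratio lies below 1 without any daily pattern, and its median over all genes was 0.640. Of the members 8 of 10 lay above that median, from 0.263 for Hyal2 to 1.06 for Aqp1, as a description with no test. Light and dark pools overlapped for every member, a description with no all-gene share to set beside it. The test of dark minus light called 0 of 10 beside 1 gene, 0.00613% of those tested. At an unadjusted p under 0.05 it took 2 of 10, Aqp1 and Aqp5, beside 12.4% of all genes. That count was 1 to 3 without 1 pool and 4 with muscle and adipocyte marker means as covariates. The all-gene shares in those fits are not given here, so these counts are not a result about the members. In whole skin, fewer cells of a type and less RNA per cell cannot be told apart.

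Aqp1, the water channel of capillary endothelium and red cells, had most of its lower pools in the dark. Its light pools were at 1271 at the lowest, 1455 at the median and 1638 at the highest, and its dark pools at 1225, 1290 and 1446. All 6 dark pools lay below the light median, but only 2 below the lowest light pool, so the groups overlapped. The dark minus light difference was -0.13 log2 (SE 0.05, 95% interval -0.25 to -0.02, limma adjusted p = 0.375). By hour the order of the means was led by 10 h, with pools at 1500 and 1638, and ended with 18 h, at 1259 and 1294. Its fitted wave had a peak at 7.6 h and a fold of 1.15 (adjusted p = 0.547).

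Aqp3, the aquaglyceroporin of keratinocytes, was at 2074, 2454 and 2538 as lowest, median and highest light pool. Its dark pools were at 1935, 2269 and 2394. Every dark pool lay below the light median, yet the lowest light pool was under 5 of the 6 dark ones, and the groups overlapped. The difference was -0.07 log2 (SE 0.07, adjusted p = 0.663). The pool at ZT14 was the lowest of all and that at ZT2 the highest. A fitted wave of 1.12-fold was found, with an upper limit of 1.33 (adjusted p = 0.669).

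Aqp5, a water channel of exocrine glands, had its higher pools in the dark. Its mean of 512 lay close above the array medians of 440.0 to 483.2. The light pools were at 440 at the lowest, 487 at the median and 528 at the highest. The dark pools were at 491, 542 and 579, and 5 of 6 lay above the highest light pool, with ZT22 as the one that overlapped. The array medians were also higher in most dark pools, and lowest of the dark pools at ZT22. Dark minus light was 0.15 log2 (SE 0.05, 95% interval 0.03 to 0.26, adjusted p = 0.362). The 2 pools at 6 h were both at 463, while the 2 at 18 h were at 529 and 579. The fitted wave had its peak at 18.2 h, a fold of 1.17 and an upper limit of 1.36 (limma adjusted p = 0.505).

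Aqp7, the channel by which adipocytes release glycerol, ran the other way. Light pools were at 976, 1133 and 1272 as lowest, median and highest, and dark pools at 948, 1000 and 1100. All 6 dark pools lay below the light median and 3 below the lowest light pool. The difference was -0.12 log2 (SE 0.06, adjusted p = 0.438). The 3 pools of the 2 h time of day were at 1272, 982 and 976, so ZT2 alone stood at the top of the range while the other two were near its bottom. The wave fitted to all pools had a fold of 1.14 (adjusted p = 0.638).

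Aqp9, an aquaglyceroporin best known from liver and white blood cells, had the smallest fitted wave of the set. Its light pools were at 687, 756 and 805 and its dark pools at 671, 755 and 795, nearly the same median in both. The fold was 1.02, with an upper limit of 1.18 (adjusted p = 0.986). At ZT46, the pool with the high hepatocyte markers, Aqp9 was at 727, within the range of the others. Among the 10 neutrophil markers 5 were tested, and their mean ran from 8.16 log2 at ZT22 to 8.53 at ZT38.

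**Figure D2:**
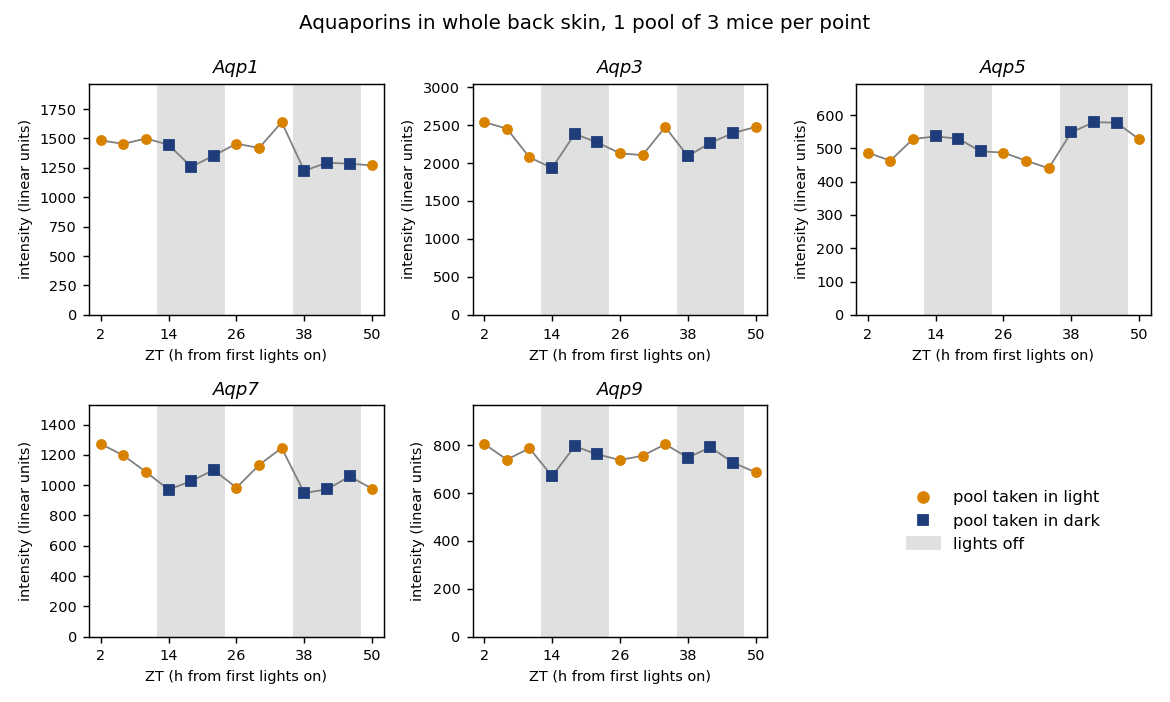
Intensity of the 5 aquaporins in each of the 13 pools against hours after the first lights on, 1 panel per gene with the axis from 0 and lights-off hours shaded. Aqp5 lies between 440 and 579 with its higher points in the shaded hours, and Aqp1 lies between 1225 and 1638.

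None of the 3 synthases passed the test of the wave, and whether they shared a daily course was not tested. Their fitted peaks were at 18.0 h for Has1 (SE 2.98), 22.4 h for Has2 (SE 2.74) and 0.4 h for Has3 (SE 1.63). Has1 was at 244, 308 and 319 in the light as lowest, median and highest, and at 265, 323 and 341 in the dark. The groups overlapped, with 4 of 6 dark pools above the highest light pool and ZT22 far below the other dark ones. The fitted wave had a fold of 1.1, with an upper limit of 1.36 (adjusted p = 0.825), and dark minus light was 0.11 log2 (adjusted p = 0.518).

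Has2, the main synthase of fibroblasts, varied most among the members, with a CV of 13% over the pools. Light pools were at 312, 440 and 536 and dark pools at 417, 461 and 515. Both extremes were light pools, ZT10 at the bottom and ZT30 at the top, 1.72-fold apart, and the dark pools lay inside that range. The fitted wave had a fold of 1.15 with an upper limit of 1.53, the widest of the set (adjusted p = 0.795). Its amplitude of 0.10 log2 was 0.02 without ZT10 and 0.16 without ZT30.

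Has3, a synthase prominent in keratinocytes, was at 610, 684 and 748 in the light and at 598, 662 and 711 in the dark. The dark minus light difference was -0.00 log2 (SE 0.06, adjusted p = 0.999), and the groups overlapped throughout. The fitted wave had its peak at 0.4 h, a fold of 1.13 and an upper limit of 1.28 (adjusted p = 0.540).

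Hyal2, a membrane-anchored hyaluronidase that cuts long chains into shorter ones, was at 957, 1038 and 1152 in the light and at 988, 1059 and 1136 in the dark. Its dark pools all fell inside the light range. The SD of its hour means was 0.03 log2 and that within hours 0.10. The peak-to-trough fold of its wave was 1.05 (adjusted p = 0.888).

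Cd44, the receptor that ties hyaluronan to the cell cortex, was the steadiest member, with a CV of 3.21%. Light pools were at 6081, 6366 and 6579 and dark pools at 5891, 6128 and 6424. Of the dark pools 5 of 6 lay below the light median and 3 below the lowest light pool, while ZT18 was inside the upper part of the light range. Dark minus light was -0.04 log2 (adjusted p = 0.681) and the fitted fold 1.04, with an upper limit of 1.15 (adjusted p = 0.847).

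**Figure D3:**
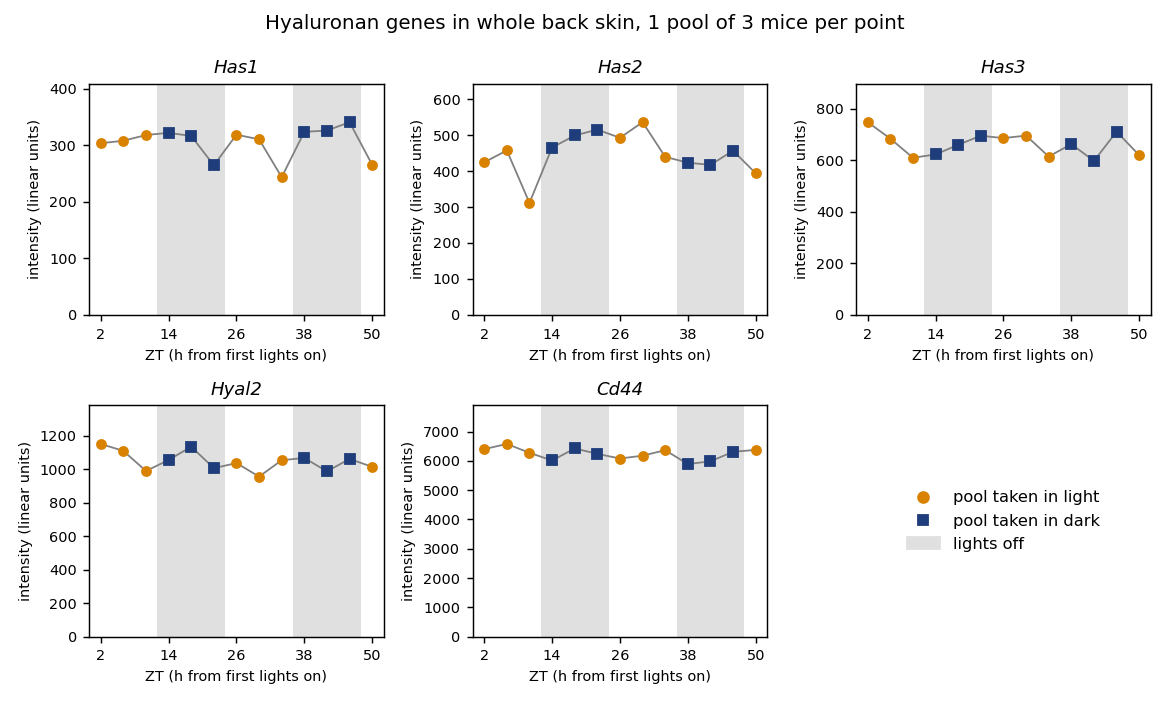
Intensity of Has1, Has2, Has3, Hyal2 and Cd44 in each of the 13 pools against hours after the first lights on, 1 panel per gene with the axis from 0 and lights-off hours shaded. Has2 spans 312 at ZT10 to 536 at ZT30, and Cd44 stays between 5891 and 6579.

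No member passed the test of drift, a linear change over the 2 days, which called 0 of 10 in limma beside 0% of all genes, and 0 of 10 at an unadjusted p under 0.05 beside 8.8%. The slopes of 8 of 10 members were below 0, as were those of 56.5% of all genes, and ran from -0.08 log2 per 24 h for Aqp7 to 0.04 for Aqp5. The smallest adjusted p was 0.658, for Hyal2 at -0.07. With pools of the same hour paired across days, an alternative added after the values were seen, 0 of 10 passed.

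Aqp5 and Has1 rose with the median of their arrays, in a test added after the values were seen. Each gene's log2 value was fitted against the median log2 value of its array. In limma 2 of 10 members passed, a share near the 17.1% of all genes. At an unadjusted p under 0.05 it was 3 of 10, near the 28.6% of all genes. The slope was 2.61 ± 0.61 (SE, 13 pools) for Aqp5 (adjusted p = 0.00742) and 2.47 ± 0.76 (SE) for Has1 (adjusted p = 0.0336). Aqp5 passed without any one pool, with a largest adjusted p of 0.0341. Has1 did not pass without ZT22 (0.0636), ZT34 (0.117), ZT38 (0.0549), ZT42 (0.0617) or ZT46 (0.0911). Aqp1 had a slope of -1.64 (adjusted p = 0.190) and Aqp7 of -2.15 (0.104), and neither passed. Slopes were below 0 for 8 of 10 members and for 54.6% of all genes, with an all-gene median of -0.16. With each array centred on its median, dark minus light was 0.10 log2 for Aqp5 (adjusted p = 0.371), -0.17 for Aqp1 (0.265) and -0.17 for Aqp7 (0.320). The array medians themselves were higher in most dark pools. In log2 they lay between 8.90 (ZT18) and 8.96 (ZT46) in the dark, except for 8.86 at ZT22. In the light they lay between 8.83 (ZT2) and 8.89 (ZT6), except for 8.92 at ZT10. What part the array median had in the daily values was not tested.

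**Figure D4:**
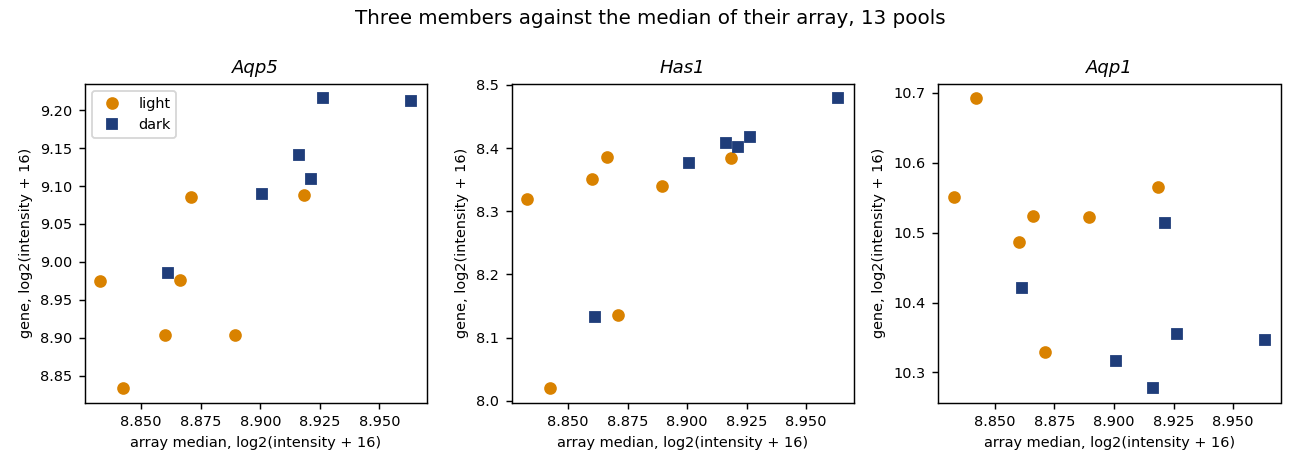
Log2 value of Aqp5, Has1 and Aqp1 (vertical axes) against the median log2 value of the same array (horizontal axes), 1 point per pool with light and dark pools told apart. The slopes are 2.61, 2.47 and -1.64 log2 per log2.

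Markers of some of the cell types that hold these channels and enzymes were set beside the members. No slope was fitted on the exocrine gland, fibroblast, red cell, neutrophil or hepatocyte markers. Against the adipocyte mean, which spanned 1.32-fold, 0 of 10 members passed beside 0% of all genes (0 of 10 and 4.59% unadjusted in limma), and the slope of Aqp7 was 0.47 ± 0.38 (SE, adjusted p = 0.999). It was 0.00937 without ZT34, the pool with the highest adipocyte mean. Against the blood endothelium mean, spanning 1.18-fold, 0 of 10 passed beside 0.0184% (0 of 10 and 11.7% unadjusted), with a slope of 0.45 ± 0.45 (SE, adjusted p = 0.724) for Aqp1. Against the basal epidermis mean, spanning 1.16-fold, 0 of 10 passed beside 0% (0 of 10 and 10% unadjusted), and Aqp3 had a slope of 0.04 ± 0.62 (SE, adjusted p = 0.986). These marker means varied little between pools, which limits what their slopes can show.

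The skeletal muscle mean varied more, and no member passed on it. In limma 0 of 10 were called beside 1.16% of all genes, and 2 of 10, Hyal2 and Has3, had an unadjusted p under 0.05 beside 6.8%. The slope was -0.16 ± 0.05 (SE) for Hyal2 (adjusted p = 0.394) and -0.16 ± 0.07 (SE) for Has3 (adjusted p = 0.652). Slopes were below 0 for 9 of 10 members and for 62.5% of all genes. Of 65 other genes of the same biology 1 passed, beside 1.16% of all genes. This was Aqp4, the water channel of fast muscle fibres and no member of the set. Aqp4 had a mean of 311 units, below the array medians of 440.0 to 483.2. It ran from 185 at ZT2 to 441 at ZT30, the pools with the lowest and the highest muscle mean, with a slope of 0.77 ± 0.09 (SE, adjusted p = 2.74e-05). It passed without any one pool, with a largest adjusted p of 3.72e-04.

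**Figure D5:**
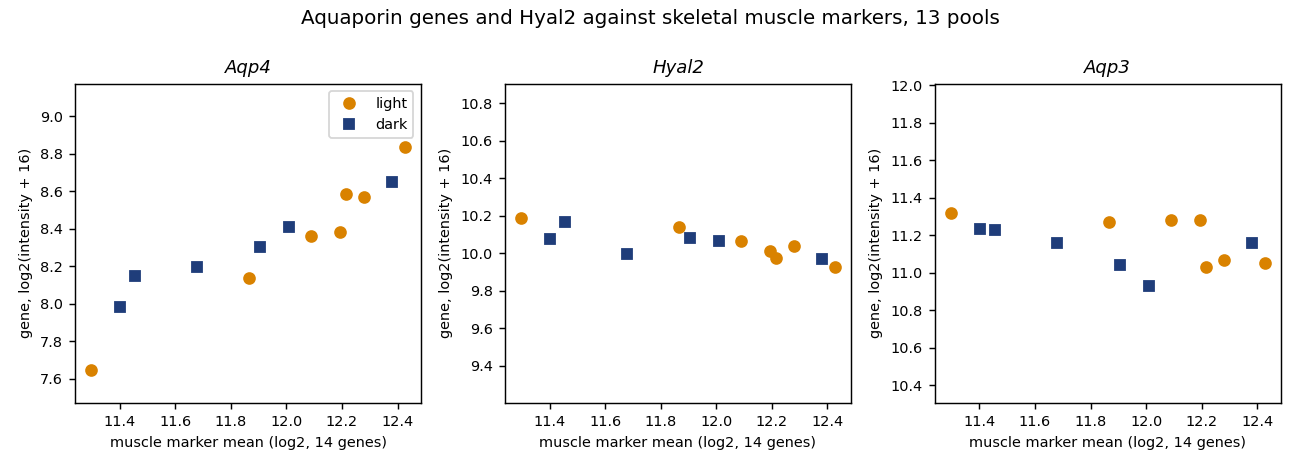
Log2 value of Aqp4, Hyal2 and Aqp3 (vertical axes) against the mean log2 value of 14 skeletal muscle markers (horizontal axes), 1 point per pool. Aqp4 has a slope of 0.77, and Hyal2 and Aqp3 have slopes of -0.16 each.

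Of 79 other listed genes of the same biology, 65 were tested, and 1 passed the test of the wave in limma (0.141% of all genes). It was Lyve1, the hyaluronan receptor of lymphatic endothelium, among 23 hyaluronan-binding genes. Its light pools were at 978, 1116 and 1284 as lowest, median and highest, and its dark pools at 1254, 1650 and 1884, with 5 of 6 dark pools above every light pool. Its fitted peak was at 15.9 h and its fold 1.65 (adjusted p = 0.0173). The call held in 8 of the 13 fits without 1 pool and was lost without ZT2 (0.0611), ZT14 (0.0583), ZT18 (0.0717), ZT42 (0.05005) or ZT50 (0.0863). With muscle and adipocyte means as covariates the adjusted p was 0.0579 at an amplitude of 0.39 log2, beside 0.36 as reported. With the 6 hours fitted as a factor the adjusted p was 0.111.

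None of the other 6 aquaporins, 7 genes of hyaluronan breakdown, 9 of its sugar precursors, 12 of glycerol handling or 8 of the ezrin family and Cd44 partners passed the wave. The unadjusted count over all 65 was 8, beside 9.54% of all genes. The 12 glycerol genes had a median amplitude of 0.0563 log2, beside 0.0609 for all genes. Of these 12, 4 had an unadjusted limma p under 0.05, beside 9.54% of all genes. After Lyve1, the smallest p-values among the 65 were those of Pnpla3, Gpd1 and Pnpla2, all from this list. Pnpla3, a lipid droplet protein of the patatin-like phospholipase family, had a fold of 1.38 with a fitted peak at 17.3 h (adjusted p = 0.191). Gpd1, which links glucose breakdown to glycerol phosphate, had a fold of 1.2 at 15.1 h (0.431). Pnpla2, the first lipase of fat breakdown, had a fold of 1.22 at 13.6 h (0.432). Dark minus light called 0 of 65 and drift 0 of 65. Their unadjusted counts were 11 of 65, beside 12.4% of all genes, and 6 of 65, beside 8.8%. Of the glycerol genes 5 of 12 had an unadjusted p under 0.05 for drift, all lower with time (Gpd1, Lipe, Mgll, Plin1 and Gpam), beside 8.8% of all genes.

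On the array median 15 of 65 passed, beside 17.1% of all genes, 13 with a slope above 0 and 2 below. The 13 were the aquaporins Mip, Aqp2 and Aqp8 and 10 hyaluronan-binding genes, the scavenger receptor Stab2, Hapln2, Ncan, Itih1, Itih2, Itih3, Itih4, Ambp, Habp2 and Ptx3. These aquaporins were dim, with means of 190 (Mip), 316 (Aqp2) and 263 units (Aqp8), below the array medians of 440.0 to 483.2. Itih1 to Itih4 and Ambp encode serum proteins made in liver. Their slopes stand beside the high hepatocyte markers of the ZT46 pool, whose part in them was not tested here. Hpse and Ezr had slopes below 0.

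The genes most like each member over the 13 pools were found among 16321 others by Pearson r of log2 values. The pools differ in array median and cell makeup, and the highest of so many is high by choice. These genes are therefore given as a description. For Aqp1 they were Cavin3 (r = 0.93) and Tns2 (0.93), for Aqp3 Slc35g1 (0.87) and Rtl6 (0.85), and for Aqp5 Snph (0.97) and Col9a3 (0.97). For Aqp7 they were Acaa2 (0.91) and Nmt1 (0.88), and for Aqp9 Kyat1 (0.90) and Ap2m1 (0.89). Among the hyaluronan genes, Has1 was most like Gpr12 (0.89) and Adamtsl2 (0.88), Has2 like Terf1 (0.97) and Cyrib (0.95), and Has3 like Zfp830 (0.86) and Ppbp (0.86). Hyal2 was most like Trib1 (0.89) and Smad4 (0.88), and Cd44 like Thoc6 (0.89) and Evi5l (0.88). Smell receptor genes were passed over in these names. They made up 6 of the 20 genes most like Has1, beside 1.94% of all genes tested.

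Between members the highest r over 13 pools was 0.75, for Aqp3 and Cd44 (0.82 after median centring). Aqp7 and Cd44 had 0.68, which became the highest, 0.84, after centring. Aqp1 and Aqp7 also had 0.68 (0.77 centred). The lowest were -0.73 for Aqp1 with Aqp5 (-0.80 centred) and -0.73 for Aqp5 with Aqp7 (-0.76 centred). Aqp3 and Aqp7, adjacent on chromosome 4 in the RefSeq gene order, had an r of 0.54 (0.66 centred). Aqp5 and Has1, which both passed on the array median, had 0.60, which fell to 0.38 after median centring. By rank (Spearman, not centred) that pair was the highest, at 0.80, beside 0.75 for Aqp3 and Cd44. These extremes are a description with no all-gene reference.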

How the data were processed

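Pooled RNA was labelled with biotin by the Affymetrix whole-transcript method and read on 1 one-colour array per time point, per the labels' protocols. The authors deposited probe intensity on a linear scale, and the submitters' processing notes name Affymetrix Expression Console 1.1.1 and PLIER 2.0 with no role for either. How arrays were scaled to each other, and a genome build, are not given in the sources used here. Precision is limited by the number of arrays.

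The deposited intensity values were not rescaled. They were analysed as log2(value + 16), and fold changes on that scale understate those of dim genes. Of 35557 probes, 21789 had 1 gene symbol in the platform annotation, 1621 several and 12147 none. Single-symbol probes were kept if their mean reached 7.61 log2, the 25th percentile over the whole table, and the highest-mean one stood for its gene, which left 16322 genes. Hyal1 shares its probes with another gene and was left unnamed.

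Tests were run in limma 3.58.1 (R 4.3.3) with Benjamini-Hochberg adjustment over all genes tested and calls under 0.05. The wave of 24 h used cosine and sine terms with linear time as covariate (moderated F), and light and dark were compared with linear time. Drift was the time term, and slopes on marker means used no covariate. The markers themselves were left out of counts on their own mean. Upper limits come from the 95% joint region of the 2 wave terms. Named genes beyond the members were those called, up to 6 per test, the 4 smallest p of the wave and the 2 most alike genes per member; names past 6 on the array median, and the glycerol genes named for drift, were chosen after their values were seen. Members, lists and tests were chosen with earlier results of these data known. Alternatives were median centring, quantile normalization, other pseudocounts and filters, all probes, another variance prior, no time covariate, marker covariates, hours as a factor and each pool left out in turn. The scripts were tested on simulated data. Figures used matplotlib 3.10.9 in Python 3.11.15.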

Additional observations from a re-analysis of the deposited data

Results flagged for a closer look

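In the dark pools Has1 had 1 value far from the others. At ZT22 it was at 265, and the nearest other dark pool was at 316, so the gap took 0.679 of the whole range of the 6 dark pools. Of 20 groups of members by light or dark 1 was marked in this way, and chance marks about 1 in 20.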

How the results depend on the processing

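No member was called for the wave, light against dark, drift or any marker slope under any alternative run. Over the alternatives, including those without 1 pool, the count of all genes called went from 9 to 30 for the wave (23 as reported), from 0 to 4 for light against dark (1) and from 1760 to 4428 for the array median (2796, with 4428 where no dim genes were dropped). On the endothelium mean it went from 0 to 243 (3), with 243 under median centring.

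Signs of some small fitted values changed. Waves are included where the fitted peak moved by over 6 h. With median centring the amplitude was 0.0174 log2 for Aqp9, dark minus light was -0.0140 for Hyal2 and drift was -0.00224 for Aqp3, and 2 other genes of the biology passed on the muscle mean and 3 on the endothelium mean. With muscle and adipocyte means as covariates the amplitude was 0.0371 for Hyal2, dark minus light was -0.0228 for Hyal2, drift was 0.0186 for Has1 and 0.00479 for Has3, and 0 other genes passed the wave, as with hours as a factor (0). Drift without wave terms was 0.00942 for Has2. With quantile normalization the slope of Aqp3 on basal epidermis was -0.0386.

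Leaving out 1 pool at a time, the amplitude of Aqp9 ran from 0.00611 to 0.0549 and that of Has2 from 0.0181 to 0.156. Members with an unadjusted p under 0.05 were 0 to 2 for the wave and 1 to 3 for light against dark. No all-gene share is given beside these counts. Dark minus light ran from -0.0509 to 0.0383 for Aqp9 and from -0.0238 to 0.0299 for Has3. Drift ran from -0.0266 to 0.0445 for Aqp3, from -0.0737 to 0.00401 for Has1 and from -0.0704 to 0.0593 for Has2. The slope of Aqp7 on the adipocyte mean ran from 0.00937 to 0.659, that of Aqp1 on endothelium from -0.0696 to 0.714 and that of Aqp3 on basal epidermis from -0.289 to 1.03. Other genes called for the wave were 0 to 1, members called on the array median 1 to 2, and other genes called there 9 to 16. The causes of these changes were not tested.

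With 1 array per time and 2 or 3 pools per hour, waves up to the upper limits given are not excluded for the members. Has1 and Has2 lay below the array median in mean level, and Aqp5 lay close above it. The labels carry no replicate numbers. Pairing pools of the same hour across days (hours as a block, added after the values were seen) called 0 members for drift and 0 of all genes, as without it, with a smallest adjusted p of 0.759 among members.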
